A study of Mus musculus with 20 samples.

Results

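The 7 genes described here are those for the small heat shock proteins expressed in muscle, Hspb1, Hspb2, Hspb3, Hspb6, Hspb7, Hspb8 and Cryab, picked by name through the annotation of the array. They were read by 14 of its 45101 probe sets and stand among 18193 genes that a single-gene probe set named. All 7 were kept among the 9275 genes tested, and the probe set used for each exceeded the detection filter on all 20 arrays. The tissue was cardiac ventricle of male mice, all of the inbred strain C57BL/6J, and the labels name no transgene or treatment. There were 10 old mice, aged 25 to 28 months, and 10 young mice, aged 4 to 6 months, each on its own Affymetrix MOE430 2.0 array. Signals were processed with GCRMA and are given as log2 values, and differences are old minus young.

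Small heat shock proteins are chaperones that need no ATP. Each carries a conserved α-crystallin domain, assembles into oligomers and holds unfolding proteins until ATP-driven chaperones refold them or autophagy removes them. The heart is rich in them, and they bind desmin filaments, actin, titin and the Z-disc, where mechanical load unfolds proteins. Hspb8 works with the co-chaperone Bag3 in chaperone-assisted selective autophagy. Cryab, also called Hspb5, protects desmin and titin, and Hspb6 and Hspb1 are regulated by phosphorylation. Hspb7 is found mainly in heart and skeletal muscle and binds filamin C. Hspb2 and Hspb3 form a complex of their own in muscle, and Hspb2 binds the kinase Dmpk.

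The arrays shared several features that bear on every value below. The 3′ minus 5′ signal of the control probe sets for β-actin and Gapdh, a sign of RNA quality, averaged 0.40 ± 0.10 on old arrays against 0.39 ± 0.08 on young arrays (± SD, n = 10 a group). Of the ventricular muscle markers, the calcium channel gene Ryr2 read 12.98 to 13.64 on old and 13.12 to 13.82 on young arrays, and the transcription factor gene Irx4 read 4.86 to 6.87 on old and 6.01 to 7.05 on young arrays. By limma 0 of the 10 tested passed the age test (1 at an unadjusted p under 0.05, for which no share of all genes is given). Atrial markers were also high on old arrays. Myl7, the atrial myosin light chain, exceeded a log2 value of 10 on 7 old arrays (replicates 3, 4, 5, 6, 8, 9 and 10), and on young arrays it was at most 2.44. Clustering of deviations from the age means divided the arrays into 5 sets that no label names, with 2 old and 2 young mice in each. Results are therefore given also without the 7 arrays, with an index of the atrial transcripts Myl7 and Sln as a covariate, and with the sets as a block. The sets were found on the tested values themselves, so every p-value with the block is too small, by an amount that was not measured. Old replicate 8 stood apart further. Its mean log2 level was the lowest of all arrays over the ventricular markers (13.69) and the highest over those of smooth muscle (9.13), fibroblasts (10.35) and adipocytes (9.07). In these bulk samples fewer cells of a type and less RNA per cell cannot be told apart.

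Of the 7 genes, Hspb8 fell and Hspb7 rose in old hearts, and the other 5 did not pass the test. The test was limma over 9275 genes with Benjamini-Hochberg adjustment and a threshold of 0.05. Of all genes 18.7% were called, 7.49% lower and 11.2% higher in old, and 2 of 7 genes is read against that background. Estimates were below 0 for 5 of the 7 genes, against 48.7% of all genes. The median difference was −0.23 over the 7 genes and 0.01 over all genes tested. Of the calls over all genes, 59.9% were rises with the values as deposited, 43.2% after quantile normalization and 68.6% after median centring, and the estimate of each of the 7 genes kept its sign under both scalings. Quantile normalization called 20.2% of genes and centring 18% in either direction, and both called the same number of the 7, 1 lower and 1 higher.

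The number called moved with the fit, as did the share of all genes called. With the array sets as a block 5 of the 7 were called (Hspb7 higher, Hspb8, Cryab, Hspb6 and Hspb1 lower) where 36.1% of all genes were. Limma called 0 of the 7 both with the atrial index and once the 7 arrays high in Myl7 were left out, where 3.74% and 2.93% of all genes were called. At an unadjusted p under 0.05 these fits had 3 and 2 of the 7, where the fit with no covariate on all arrays had 1 higher and 4 lower. The share of all genes at that threshold is not given here, so the unadjusted counts have no background to be read against. The block together with the index, and the sets of the 3 remaining old arrays, also called 0 (3 of the 7 unadjusted in each), against 6.24% and 2.35% of all genes. Other settings called 4 of the 7 with no filter (23.9% of all genes) and with a variance trend and robust prior (18.9%), 3 with array weights (20.4%) and 1 with the mean of a gene's probe sets (17.9%).

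**Figure D1:**
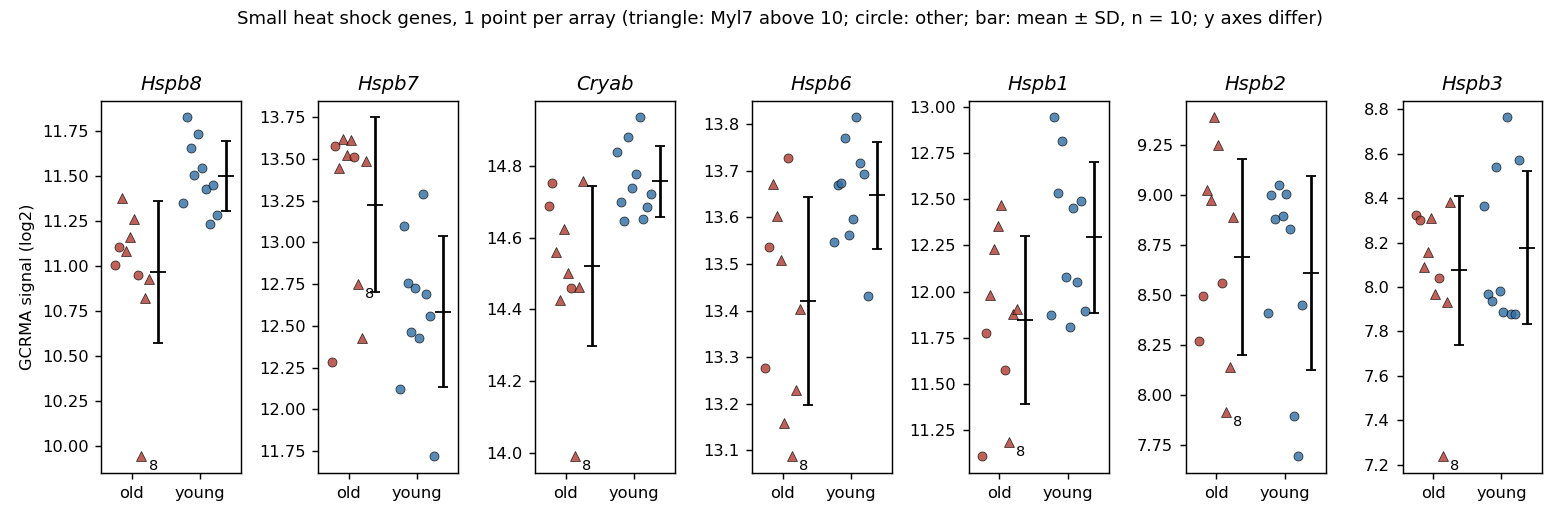
GCRMA signal (log2, y axis, own range per gene) of the 7 genes on each old array and each young array. Triangles mark the 7 old arrays with Myl7 above 10, the number 8 marks old replicate 8, and bars give the mean ± SD (n = 10 per group). Of the 10 old arrays, 8 lay below every young array for Hspb8, and 7 lay above every young array for Hspb7.

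The windows at the transcription starts of the genes that fell and rose are shown with that of Hspb1. Among the 5 genes with a window, Hspb1 had the most matches to a short, 2-unit form of the heat shock element. That element is the sequence bound by heat shock factors, and binding was not tested here. RefSeq (GRCm38.p6) gives 250 bases before and 50 after each start, printed 5′ to 3′ on the gene's strand, and capitals mark matches to GAANNTTC or TTCNNGAA, each its own reverse complement. The Hspb8 window is chr5:116422815-116423114 (minus strand), the Hspb7 window chr4:141420529-141420828 (plus strand) and the Hspb1 window chr5:135887669-135887968 (plus strand).
Hspb8: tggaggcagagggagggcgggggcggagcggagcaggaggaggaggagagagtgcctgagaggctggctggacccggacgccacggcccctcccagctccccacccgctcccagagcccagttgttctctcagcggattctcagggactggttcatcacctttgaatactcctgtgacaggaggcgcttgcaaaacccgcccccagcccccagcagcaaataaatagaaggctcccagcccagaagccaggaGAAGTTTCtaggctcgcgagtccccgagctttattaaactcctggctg
Hspb7: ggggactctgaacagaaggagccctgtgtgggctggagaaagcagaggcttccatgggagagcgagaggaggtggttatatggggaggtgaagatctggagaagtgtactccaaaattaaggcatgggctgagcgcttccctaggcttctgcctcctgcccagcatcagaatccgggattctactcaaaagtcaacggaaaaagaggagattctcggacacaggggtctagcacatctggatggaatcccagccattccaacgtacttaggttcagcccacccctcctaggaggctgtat
Hspb1: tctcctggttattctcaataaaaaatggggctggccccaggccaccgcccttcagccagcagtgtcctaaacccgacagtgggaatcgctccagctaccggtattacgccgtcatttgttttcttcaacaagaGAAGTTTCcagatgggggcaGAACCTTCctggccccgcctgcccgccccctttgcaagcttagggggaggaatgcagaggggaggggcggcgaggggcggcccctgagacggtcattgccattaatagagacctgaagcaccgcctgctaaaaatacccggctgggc
Hspb8 held 1 match, starting at base 253 of the window and so just after the start site, and Hspb7 held none. Hspb1 held 2, at bases 134 and 154. Of the 6 windows listed for 5 of the genes, 4 held a match, against 15.06% of 32851 promoter windows of the same length. The others with a match were Hspb3 and the second of the 2 Hspb6 windows. Of the 6, 0 held a longer form with one more unit, GAANNTTC followed by NNGAA or TTCNNGAA followed by NNTTC, which 0.6% of all windows held on either strand. These are matches of letters only, and Cryab and Hspb2 had no window in the table used here.

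Hspb8, the partner of Bag3, was lower in old hearts. Its signal ran from 9.95 to 11.38 on old arrays with a median of 11.05, and from 11.23 to 11.82 on young arrays with a median of 11.48. The groups overlapped only through old replicates 3 and 6, and 10 of 10 old arrays lay below the young median. The mean was 10.96 ± 0.39 on old arrays against 11.50 ± 0.19 on young arrays (± SD, n = 10 a group), a difference of −0.53 ± 0.14 (SE; limma adjusted p = 0.00794), by which the linear signal fell by 31.0%. Old replicate 8 had the lowest value, 9.95, and without it the difference was −0.42 (adjusted p = 0.00329). A second probe set of the gene, at 9.47 ± 0.55 in old and 10.02 ± 0.39 in young, differed by −0.55 (adjusted p = 0.0698 with each probe set tested). The remaining, dimmer one, whose design allows cross-hybridisation, was at 6.40 ± 0.18 in old and 6.66 ± 0.11 in young. On it every old array lay below every young one, as on 0.314% of 15304 probe sets, and the difference of −0.27 passed that test (adjusted p = 0.0249), as lower calls did for 5.91% of probe sets.

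The fall of Hspb8 had the same sign in each of the 5 array sets, at −0.26, −0.51, −0.43, −0.89 and −0.59. The set at −0.89 holds old replicate 8. With the sets as a block the adjusted p was 0.000951. Without the 7 arrays high in Myl7 the difference was −0.48 (adjusted p = 0.0615), and with the atrial index it was −0.45 (adjusted p = 0.175), so neither passed the test. The 3 old arrays left by the first of these read 10.95 to 11.10, below all 10 young arrays.

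Hspb7, the filamin-binding member, was higher in old hearts. Its signal ran from 12.28 to 13.62 on old arrays with a median of 13.50, and from 11.72 to 13.29 on young arrays with a median of 12.62. The old arrays were split, with 7 between 13.44 and 13.62 and above every young array, and with old replicates 1, 8 and 9 at 12.28, 12.75 and 12.43, inside the young range. The mean was 13.22 ± 0.52 on old arrays against 12.59 ± 0.45 on young arrays (± SD, n = 10 a group), a difference of 0.64 ± 0.20 (SE; limma adjusted p = 0.0315) or a linear ratio of 1.56. The other 2 probe sets of the gene were at 12.30 ± 0.90 in old against 11.63 ± 0.92 in young, and at 11.84 ± 0.64 in old against 11.34 ± 0.61 in young. Their differences of 0.67 and 0.50 did not pass with each probe set tested (adjusted p = 0.252 and 0.214).

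The rise of Hspb7 was uneven across the array sets, at 1.01, 0.60, 0.99, 0.51 and 0.08. It passed with the sets as a block (adjusted p = 0.012). It did not pass without the 7 arrays high in Myl7 (0.54, adjusted p = 0.386), with the atrial index (0.60, adjusted p = 0.241) or with the mean of its probe sets (0.60, adjusted p = 0.13). Leaving out 1 array ended the call for each of old replicates 2, 4, 5 and 6 and young replicates 11, 16 and 20, with adjusted p of at most 0.0579. On the low old arrays Myl7 was 2.36 on replicate 1, 14.03 on replicate 8 and 14.26 on replicate 9. Of the old arrays above every young one for Hspb7, replicates 3, 4, 5, 6 and 10 had Myl7 above 10, while replicates 2 and 7 did not. A relation of this split to the atrial signal was not tested.

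**Figure D2:**
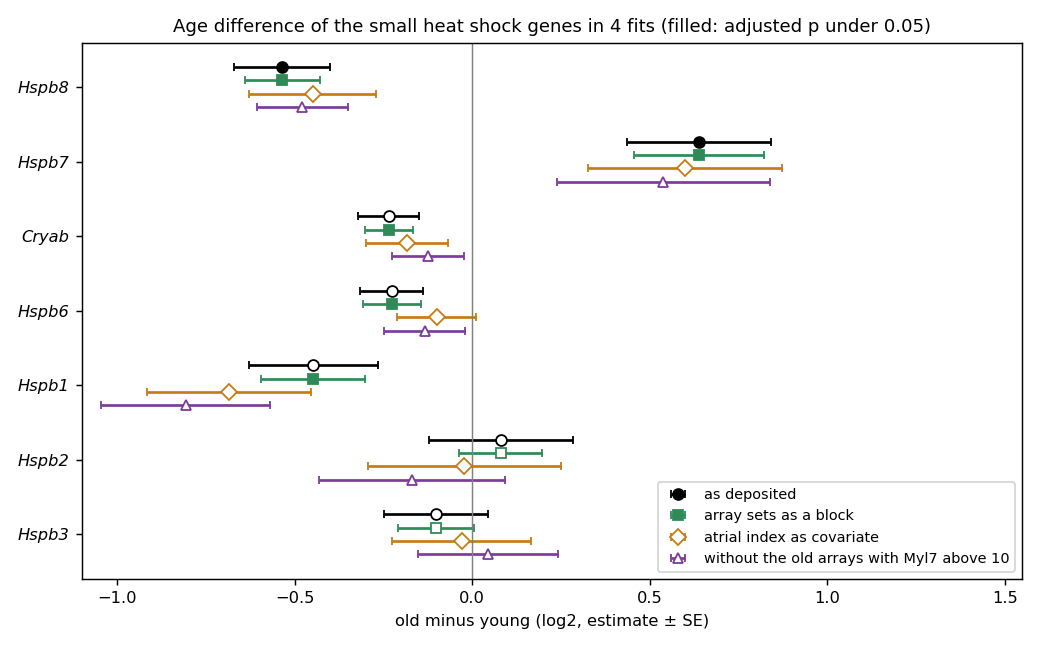
Old minus young difference of each gene (log2, x axis, estimate ± SE) in 4 fits, filled where the adjusted p was under 0.05. Hspb8 and Hspb7 were called as deposited and with the array sets as a block, and 0 of the 7 genes were called with the atrial index or without the 7 old arrays high in Myl7.

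Cryab, the αB-crystallin gene, did not pass the test, although most old arrays read below the young ones. Its signal ran from 13.99 to 14.76 on old arrays with a median of 14.53, and from 14.65 to 14.93 on young arrays with a median of 14.73. Of the old arrays 7 lay below every young one, while replicates 1, 2 and 10 lay inside the young range. The mean was 14.52 ± 0.22 on old arrays against 14.76 ± 0.10 on young arrays (± SD, n = 10 a group), a difference of −0.24 ± 0.09 (SE; limma adjusted p = 0.0621) with an interval of −0.42 to −0.06 (95%, not adjusted). The estimate was below 0 in all 5 array sets, from −0.06 to −0.44, and passed with the sets as a block (adjusted p = 0.0119). Without old replicate 8, which had the lowest value, it was −0.18 (adjusted p = 0.0937), and with the 7 arrays left out it was −0.12 (adjusted p = 0.587). A second Cryab probe set was at 13.57 ± 0.34 in old and 13.79 ± 0.18 in young, and the remaining one was under 4 on all 20 arrays.

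Hspb6, a small chaperone that protein kinases A and G phosphorylate, had an estimate of the same sign as Cryab and close to it in size. Its signal ran from 13.09 to 13.73 on old arrays with a median of 13.46, and from 13.43 to 13.81 on young arrays with a median of 13.67. Of the old arrays 5 lay below every young one. The mean was 13.42 ± 0.22 on old arrays against 13.65 ± 0.11 on young arrays (± SD, n = 10 a group), a difference of −0.23 ± 0.09 (SE; limma adjusted p = 0.0777) with an interval of −0.41 to −0.04. It was below 0 in all 5 array sets, from −0.03 to −0.48, and passed with the sets as a block (adjusted p = 0.0376). Without the 7 arrays it was −0.13 (adjusted p = 0.598) and with the atrial index −0.10 (adjusted p = 0.675). With sets and index together it was −0.012 (adjusted p = 0.96), and in the sets of the 3 remaining old arrays −0.040 (adjusted p = 0.842).

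Hspb1, which encodes the stress-induced Hsp25 of the mouse, varied more. Its signal ran from 11.11 to 12.47 on old arrays with a median of 11.89, and from 11.80 to 12.94 on young arrays with a median of 12.27. Old replicates 1, 2, 7 and 8 lay below every young array, and young replicates 12, 13, 14 and 19 above every old one. The mean was 11.85 ± 0.46 on old arrays against 12.29 ± 0.41 on young arrays (± SD, n = 10 a group), a difference of −0.45 ± 0.18 (SE; limma adjusted p = 0.0903) with an interval of −0.83 to −0.07. The second probe set differed by −0.47 (adjusted p = 0.108 with each probe set tested) and followed the first closely (r = 0.97 over 20 arrays). The array sets disagreed in sign, with 4 between −0.44 and −0.89 and 1, which holds old replicates 5 and 6, at 0.47. The gene passed with the sets as a block (adjusted p = 0.0248). Unlike the other members below 0, its estimate moved away from 0 without the 7 arrays, to −0.81 (adjusted p = 0.0913). The old arrays left, replicates 1, 2 and 7, were among the 4 lowest. The estimate with the atrial index was −0.69 (adjusted p = 0.102).

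Hspb2 and Hspb3, partners of one another in muscle, showed no difference that passed the test. Hspb2 ran from 7.92 to 9.39 on old arrays with a median of 8.73, and from 7.69 to 9.05 on young arrays with a median of 8.86. Its means were 8.69 ± 0.49 on old arrays against 8.61 ± 0.49 on young arrays (± SD, n = 10 a group), a difference of 0.08 with an interval of −0.34 to 0.50 (limma adjusted p = 0.828). Hspb3 ran from 7.24 to 8.38 on old arrays with a median of 8.12, and from 7.88 to 8.76 on young arrays with a median of 7.98. Its means were 8.07 ± 0.33 on old arrays against 8.18 ± 0.34 on young arrays (± SD, n = 10 a group), a difference of −0.10 with an interval of −0.41 to 0.20 (limma adjusted p = 0.675). The groups overlapped widely for both genes, and the intervals leave room for changes of the size measured for Cryab. The array sets gave −0.42 to 0.44 for Hspb2 and −0.49 to 0.20 for Hspb3.

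**Figure D3:**
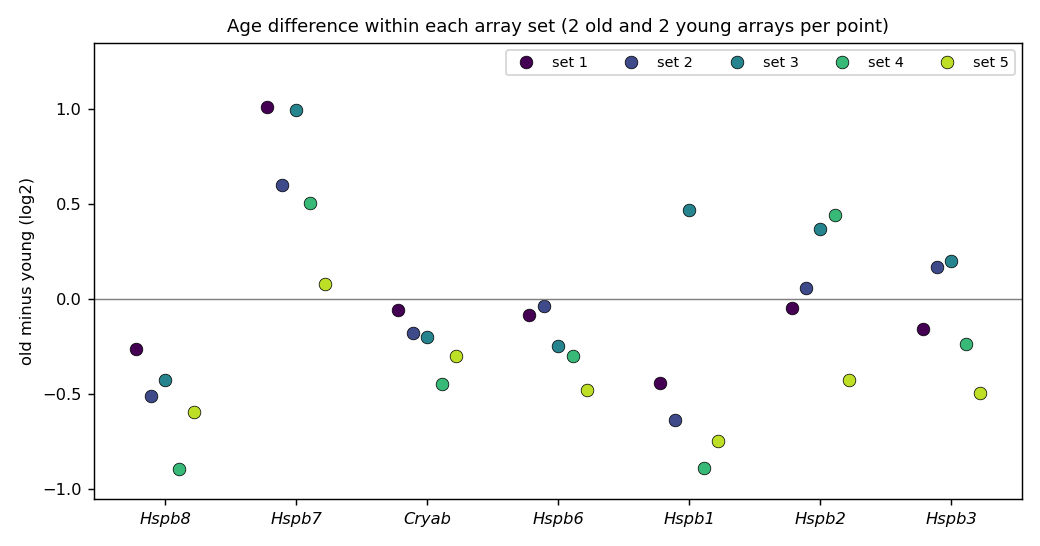
Old minus young difference (log2, y axis) of each gene in each of the 5 array sets, 2 old and 2 young arrays per point. Hspb8, Cryab and Hspb6 lay below 0 in all 5 sets and Hspb7 above 0 in all 5, while Hspb1, Hspb2 and Hspb3 had sets on both sides.

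How closely the 7 genes followed one another from mouse to mouse depended on the array sets and on old replicate 8. Over the 21 pairs, Pearson correlations of deviations from the age means ran from 0.09 to 0.84 across the 20 arrays, with a median of 0.40. Without old replicate 8 they ran from −0.27 to 0.72 with a median of 0.16. With the array sets also removed they were above 0 for all 21 pairs, from 0.25 to 0.86 with a median of 0.57 over 20 arrays, and from 0.01 to 0.74 with a median of 0.45 without that array. The points share arrays and sets, so these are descriptions only. The closest pair differed between these versions. It was Cryab and Hspb3 with the age means alone removed (r = 0.84, Spearman 0.75, and r = 0.72 without old replicate 8), and this pair was at 0.69 with the sets removed. Cryab and Hspb8 were at r = 0.60 and, without old replicate 8, at −0.07, but with the sets removed they were the closest pair at 0.86, and at 0.57 without that array. The partners Hspb2 and Hspb3 were at 0.38 with the age means removed (0.19 without old replicate 8) and at 0.68 with the sets removed (0.74 without that array).

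**Figure D4:**
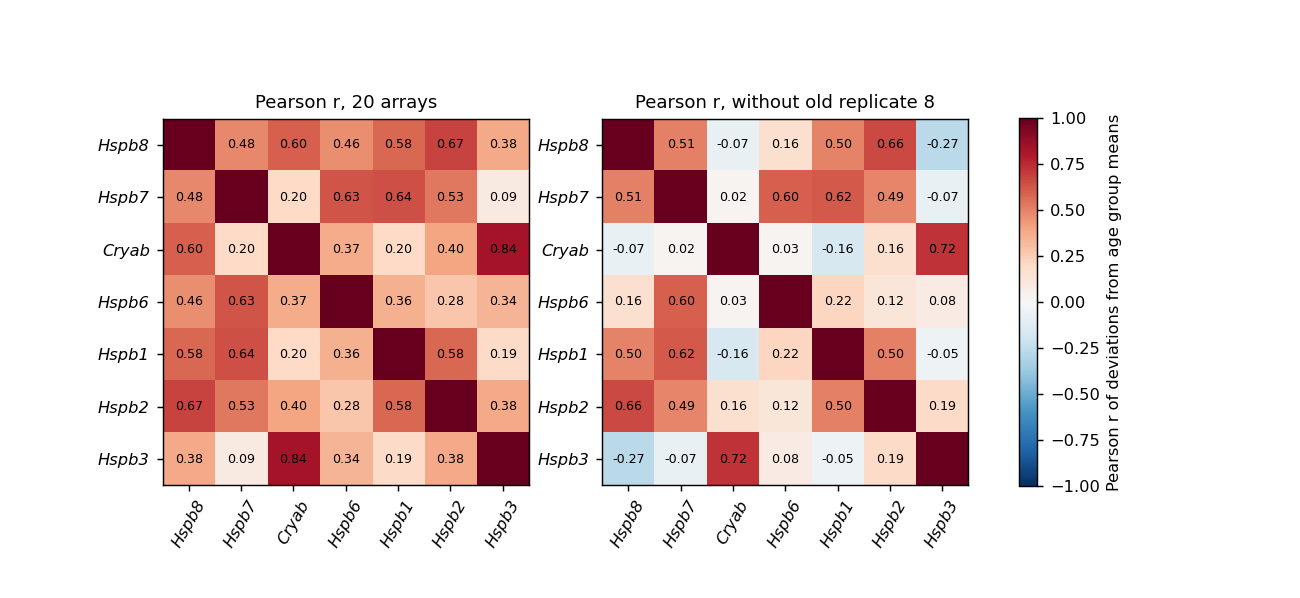
Pearson correlation of deviations from the age group means for each pair of genes, over 20 arrays on the left and 19 on the right. Without old replicate 8 the pair of Cryab and Hspb3 stayed at 0.72, while that of Cryab and Hspb8 was at −0.07; the array sets are not removed here.

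Among all genes tested, those most like each member by the same measure were as follows, with r over 20 arrays. Hspb8 was closest to S100a1, a calcium-binding protein of heart muscle (0.90), and Ccm2l (0.89). Hspb7 was closest to Gatd3a (0.87) and Vapb, a protein of the endoplasmic reticulum (0.85). Of these 2, Vapb also rose with age, by 1.97 (adjusted p = 0.0069). Cryab was closest to Scube2 (0.94), which fell by 0.94 (adjusted p = 0.0291), and Mrpl14 (0.92). Hspb6 was closest to Ank1 (0.84) and Mtfp1 (0.83), the second of which fell by 0.40 (adjusted p = 0.0221). Hspb1 was closest to Cltb (0.86) and Atf5, a stress-response transcription factor (0.84), which rose by 0.61 (adjusted p = 0.0262). Hspb2 was closest to Otub1 and Rex1bd (0.91 each), and Hspb3 to Chchd7 and Spata33 (0.92 each). Without old replicate 8 these values were between 0.78 and 0.90, and with the array sets removed between 0.68 and 0.94.

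The inducible chaperone list holds ATP-driven chaperones, some of which take clients over from small heat shock proteins, with co-chaperones and other chaperones. Of its 17 tested genes, 11 fell and 0 rose, with a median of −0.40. Of all genes 7.49% were called lower and 11.2% higher. Of the ATP-driven ones, Hspa1a, Hspa1b and the mitochondrial chaperonin gene Hspd1 fell, and Hsph1 fell by 1.19 (limma adjusted p = 0.00346). Not past the test were Hspa8 (−0.18, adjusted p = 0.166) and Hsp90aa1 (−0.22, adjusted p = 0.321). The same holds for Hspa4 (−0.01, adjusted p = 0.928) and Hspa4l (−0.34, adjusted p = 0.0839). The Hsp70 co-chaperones Dnaja1 and Dnajb1 fell by 1.19 and fell by 1.34, Cacybp fell by 0.48, and the stress-induced Hsp70 gene Hspa1a fell by 3.17. Hspa1a was 4.46 ± 0.51 on old arrays against 7.63 ± 2.15 on young arrays (± SD, n = 10 a group, limma adjusted p = 0.00136), and its near-identical copy Hspa1b may share its signal. With the atrial index 5 of the 17 were lower, and without the 7 arrays limma called 0, where 0.927% and 0.679% of all genes were called lower. At an unadjusted p under 0.05, 9 were lower without the 7 arrays and 12 in the fit with no covariate on all arrays. The shares are for the adjusted p, and the unadjusted counts have none beside them. Of the regulators, Hsbp1, which binds heat shock factor 1, did not pass (−0.14, adjusted p = 0.446), and Hsf2 and Hsf4 were under 4 on all arrays. The gene of heat shock factor 1 itself, Hsf1, was matched to no single-gene probe set and was not tested. The same holds for Hsp90ab1 of the chaperone list. Of the other genes listed beside the family, Hspb11 did not pass (−0.20, adjusted p = 0.47), and Cryaa, Hspb9 and Odf1, genes of lens or testis, were under 4 on all arrays.

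Of 11 partners, Bag3 fell and the actin crosslinker gene Flna rose by 1.31 (limma adjusted p = 0.00375), while Dnajb6 (0.40, adjusted p = 0.0563) and Synpo2 (0.32, adjusted p = 0.0827) did not pass. Against these calls, 7.49% of all genes were called lower and 11.2% higher. Bag3 was 10.15 ± 0.41 on old arrays against 10.60 ± 0.32 on young arrays (± SD, n = 10 a group), a difference of −0.45 (limma adjusted p = 0.0463). The Flna value without the 7 arrays was 0.62 (adjusted p = 0.353). The call of Bag3 was lost after median centring (adjusted p = 0.0643), without the 7 arrays (adjusted p = 0.117) and in the fit with the index (adjusted p = 0.202). Deviations of Hspb8 and Bag3 were correlated at r = 0.74 over 20 arrays (Spearman 0.63), at 0.54 without old replicate 8 and at 0.79 with the array sets removed, whereas Hspb8 and Hspa1a were at −0.01. Such values were not particular to this pair. In the same order, Hspb8 was at 0.68, 0.62 and 0.77 with the desmin gene Des. With the ventricular marker Myl2 it was at 0.57, 0.62 and 0.59. Hspb1 and Bag3 were at 0.66, 0.58 and 0.49. The filamin C gene Flnc was at 0.25 (adjusted p = 0.521) and Dmpk at −0.31 (adjusted p = 0.344), neither past the test.

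Of 10 kinases, Mapkapk5 and Prkaca, the catalytic subunit gene of protein kinase A, fell by 0.36 and fell by 0.32 (limma adjusted p = 0.0198 and 0.0269). Neither was called without the 7 arrays, at −0.26 for Mapkapk5 (adjusted p = 0.356) and −0.16 for Prkaca (adjusted p = 0.546), and Prkaca was also lost after median centring (adjusted p = 0.0529). Prkg1, the gene of protein kinase G, rose by 0.54 (adjusted p = 0.00577) and was also called without the 7 arrays (0.69, adjusted p = 0.0337). The Hspb1 kinase gene Mapkapk2 was at 0.08 (adjusted p = 0.765), and Mapk12 at 0.35 (adjusted p = 0.0653). In all 1 of the 10 kinases was called higher and 2 lower, against 11.2% and 7.49% of all genes. Of 13 client genes, 3 rose and 0 fell, against the same shares of all genes (11.2% higher, 7.49% lower). They were the intermediate filament gene Vim (0.86, adjusted p = 0.000151) and the Z-disc genes Tcap (0.38, adjusted p = 0.0119) and Myot (0.70, adjusted p = 0.0348), and Pdlim5 did not pass (0.21, adjusted p = 0.0852). Desmin (Des), the filament that Cryab binds, was 11.50 ± 0.42 on old arrays against 11.56 ± 0.40 on young arrays (± SD, n = 10 a group, adjusted p = 0.862). Without the 7 arrays Myot was called (1.25, adjusted p = 0.00155), while Vim (0.58, adjusted p = 0.0836) and Tcap (0.51, adjusted p = 0.0853) were not. With the atrial index limma called all 3, where 3.74% of all genes were called. Vim was at 0.75 (adjusted p = 0.0205), Tcap at 0.53 (adjusted p = 0.0214) and Myot at 1.09 (adjusted p = 0.0277).

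**Figure D5:**
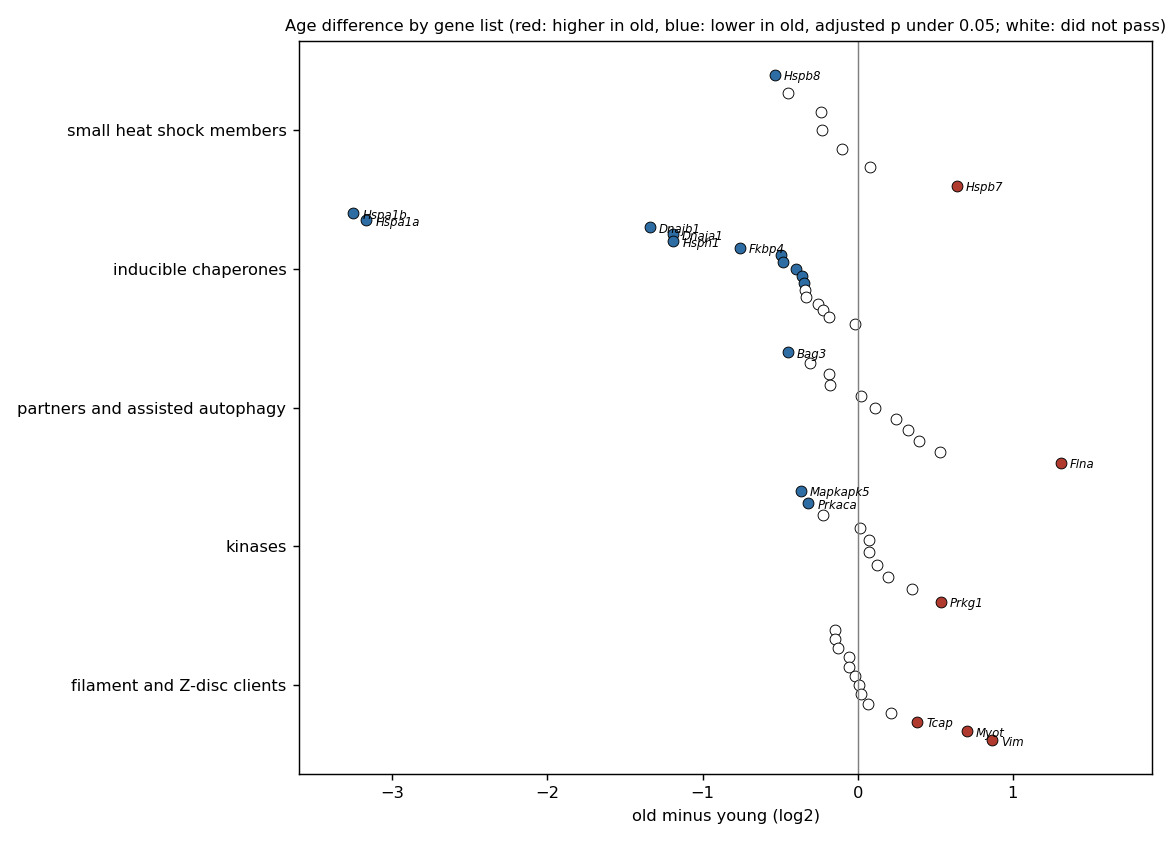
Old minus young difference (log2, x axis) of each tested gene in 5 lists, red where higher in old, blue where lower in old, white where the adjusted p was 0.05 or above. The inducible chaperones lay below 0 in all 17 cases, while the small heat shock genes and the other 3 lists lay on both sides.

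Some markers of other cells were called higher in old in the same samples. Of all genes 11.2% were called higher and 7.49% lower. All 4 tested atrial markers rose, and the mean level over the 7 on the array was 4.57 to 12.15 in old and 4.34 to 5.01 in young. Of smooth muscle markers 1 of 7 rose (Acta2), with levels of 6.36 to 9.13 in old and 6.15 to 7.49 in young. Fibroblast markers rose in 3 of 7 cases (9.18 to 10.35 in old, 9.12 to 9.46 in young), macrophage markers in 5 of 7 (7.49 to 8.52 in old, 7.04 to 7.73 in young) and endothelial ones in 1 of 7 (7.56 to 8.63 in old, 7.86 to 8.39 in young). The single calls for smooth muscle and endothelium were near the share of all genes called higher. With the atrial index 1 fibroblast and 2 macrophage markers were called higher, where 3.74% of all genes were called in either direction. Without the 7 arrays these counts were 1 and 3, where 2.93% were called. Of the 5 adipocyte markers on the array 1 was tested and did not pass, with levels of 4.80 to 9.07 in old and 4.75 to 4.85 in young. The mean level of skeletal muscle markers was near the floor (2.87 to 3.29 in old, 2.97 to 3.14 in young). Myh1, Myh2, Myh4 and Tnnt3 were under 4 on all arrays. Some others were not. Mylpf exceeded 4 on 9 old and 10 young arrays, and Tnni2 on 3 old and 0 young arrays. Pvalb (up to 5.25) and Atp2a1 (up to 4.04) exceeded 4 on 1 old array each and on 0 young arrays. The part of atrial muscle was examined only through the index and the 7 arrays, and that of the other cell types in the values of the 7 genes was not tested.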

How the data were processed

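Per the labels' protocols, RNA of frozen ventricle was purified on RNeasy columns after homogenization in Trizol, then hybridised to MOE430 2.0 arrays. The deposited table holds 1 log2 value per probe set and array. Per the submitters' processing notes the authors used GCRMA, which corrects background by probe sequence and normalizes between arrays. Its version is not given in the sources used here, and the log base was read from the values. All 20 columns were used (0 left out). Groups came from the sample titles. Age ranges came from the protocols; the design text calls both ranges young. Gene names came from the annotation of the platform, with 34945 of 45101 having 1 gene, 932 several and 9160 none (64 controls apart), and 34741 names were updated through a GRCm38.p6 gene table. A probe set passed with a log2 value above 4 on at least 10 arrays, and of those passing, the one of highest mean stood for its gene.

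Old and young were compared with limma 3.58.1 in R 4.3.3 (lmFit, eBayes, Benjamini-Hochberg over all genes tested, no covariate). With each probe set tested, the adjustment ran over 15304 probe sets. The atrial index averages the linear signals of Myl7 and Sln, each divided by its highest array. Array sets came from average linkage clustering of correlations of deviations, divided into 5 (cluster 2.1.8.1). Since they were found on the tested values, p-values with the block are too small, by an amount that was not measured. Named genes are the 7 members, up to 4 genes of smallest p per related list, the genes whose role is introduced, and the 2 genes most correlated with each member. The members and lists were chosen with earlier results of these data known. The fit was tested on simulated data. The number of arrays limits the precision.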

Additional observations from a re-analysis of the deposited data

Results flagged for a closer look

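In 4 cases 1 array stood far from the others of its group by Dixon's ratio, among 28 groups of 10 arrays examined (14 probe sets in each age group), where chance flags about 1 in 20. All 4 were old replicate 8, and all were the lowest value of the old group. It read 9.95 for Hspb8, with the next old array at 10.82, and 7.24 for Hspb3, with the next at 7.93. For Cryab it read 13.99 on the probe set used, with the next at 14.43, and 12.72 on the second probe set, with the next at 13.45. The probe sets of a gene share the array and are not separate evidence. On the same array 40.3% of probe sets exceeded a log2 value of 4, the highest share of the 20 arrays. Without this array the difference was −0.42 for Hspb8 (limma adjusted p = 0.00329), −0.18 for Cryab (adjusted p = 0.0937) and −0.01 for Hspb3 (adjusted p = 0.971), and the calls were still 1 fall and 1 rise.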

How the results depend on the processing

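No paired analysis was possible because the titles number the mice from 1 to 20 and no number is shared between the groups. The count of 2 called members was 4 with no filter and with a variance trend and robust prior, 5 with the array sets as a block, 1 with the mean of probe sets, and 0 with the atrial index, without the 7 old arrays high in Myl7, with sets and index together, and in the sets of the remaining old arrays (3 old, 4 young), a setting chosen after seeing the data. Over all genes, 1732 calls became 4345, 3344, 347, 272, 579 and 218 with no filter, the block, the index, without the 7 arrays, with sets and index, and in the remaining sets. The 19 calls in the related lists became 9, 2, 11 and 5 in the last 4 of these. Values of single genes follow in the order index, without the 7 arrays, sets and index, remaining sets. Hspb8 was at −0.45, −0.48, −0.33 and −0.31 and Hspb7 at 0.60, 0.54, 0.82 and 0.96, none past the threshold, as was Hspb7 with the mean of probe sets (0.60). Cryab passed with no filter and the variance trend (−0.24 each), array weights (−0.20) and the block (−0.24), Hspb6 with no filter, the variance trend and the block (−0.23 each), and Hspb1 with the block (−0.45). Uncalled estimates changed sign for Hspb2 with the index (−0.022) and without the 7 arrays (−0.17), and for Hspb3 with array weights (0.055), without the 7 arrays (0.045) and with sets and index (0.058). The cause was not tested.

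Leaving out each array in turn gave −0.58 to −0.42 for Hspb8, 0.54 to 0.74 for Hspb7, −0.26 to −0.18 for Cryab, −0.26 to −0.19 for Hspb6, −0.52 to −0.37 for Hspb1, −0.02 to 0.17 for Hspb2 and −0.14 to −0.01 for Hspb3. Hspb2 changed sign without young replicate 19 (−0.021). Hspb8 was called in all 20 fits and Hspb7 in 13, Cryab only without old replicate 2 or 10 and Hspb6 only without old replicate 7. Called members numbered 1 to 3, calls over all genes 1391 to 1830 and calls in the related lists 15 to 21.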
